A study of Mus musculus with 20 samples.

Results

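The genes of metallothioneins and zinc export were followed across the study: Mt1 and Mt2, which encode metallothioneins, Slc30a1, which encodes the zinc exporter ZnT1, and Mtf1, which encodes the zinc-sensing transcription factor of that system. They are 4 of the 32285 genes in the deposited table, matched by symbol, and they were chosen by their measured values in these libraries, the TPM levels and log2 differences of the 4 groups. Their levels and differences are therefore given as a description, without a test, while genes of other lists are given with the test over all genes. The study measured RNA of cancer-associated fibroblasts (CAFs), murine primary cells that had been immortalised, in a project on pancreatic cancer, with 20 libraries, 5 in each of 4 groups. The first group was held in 0.2 mM glutamine with 25 uM EIPA and the second in 0.2 mM glutamine with vehicle. The third was held in 4 mM glutamine with IL-1a at 25 pg/mL and the fourth in 4 mM glutamine with vehicle. The sample titles name DMSO for the vehicle groups and the IL-1a group and do not name it for the EIPA group. Every treatment lasted 32 h. EIPA, a derivative of amiloride, blocks sodium-proton exchangers and is widely used against macropinocytosis, by which cells take up extracellular fluid in bulk. IL-1a is an inflammatory cytokine. The protocol text gives the EIPA dose in mM where the sample titles give it in uM, and the titles were followed. The labels name neither the mouse strain nor the number of lines or clones behind these cells, and whether replicates came from separate cultures is not stated, so any p-value measures only the spread between these samples, which may be technical.

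Metallothioneins are small proteins of the cytosol, rich in cysteine, that bind zinc and copper and buffer their free concentration. When free zinc rises, MTF1 binds metal response elements near its target genes and raises transcription of the metallothioneins and of Slc30a1, whose product moves zinc out of the cell across the plasma membrane. Metallothionein genes are also known to respond to oxidative stress, glucocorticoids and inflammatory cytokines, and fibroblasts in culture express them at high levels.

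Levels are in TPM, a measure of transcript abundance that is corrected for transcript length and on which every library sums to the same total, so sequencing depth is unknown and all levels are relative to the other RNA of the same library. Of 10 fibroblast markers, 8 passed the filter of at least 1 TPM in at least 5 libraries, Vim was the highest of them, and Lum and Fap were below the filter. The summed fibroblast markers ran from 2123.0 to 2390.4 TPM with EIPA, from 3295.9 to 3892.3 TPM in 0.2 mM vehicle and from 7247.1 to 9247.8 TPM over the 4 mM groups. With EIPA the 8 markers did not move together: limma called 3 higher and 4 lower, where 27.4% and 21.1% of all genes were. At 0.2 mM against 4 mM glutamine 0 were called higher and 7 lower, where 45.4% and 27.9% of all genes were. Summed epithelial markers, led by Krt19, ran from 88.52 to 119.8 TPM with EIPA, from 132.9 to 205.5 TPM in 0.2 mM vehicle and from 166.8 to 397.1 TPM over the 4 mM groups, with Epcam and Krt8 below the filter. Of the 3 that passed it, limma called 1 higher and 1 lower with EIPA, and all 3 lower at 0.2 mM against 4 mM glutamine. Summed endothelial markers did not pass 10.32 TPM, and mural and Schwann markers did not pass 2.37 TPM. Summed leukocyte markers stood at 7.23 to 8.7 TPM with EIPA against 1.56 to 2.67 TPM in the other groups. That sum was almost all Cd68, which rose with EIPA by 1.40 ± 0.10 on the log2 scale (limma adjusted p = 8.7e-10), while Cd3e and Adgre1 were listed at 0 in all 20 libraries. The part of these marker differences in the results on the 4 genes was not tested. In bulk RNA, fewer cells of a type and less RNA per cell cannot be told apart.

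All positions are on GRCm38 (mm10) with the GENCODE M21 annotation. Mt1 (ENSMUSG00000031765) lies at chr8:94179082-94180327 on the plus strand, and Mt2 (ENSMUSG00000031762) at chr8:94172664-94173568 on the same strand, with 6.42 kb between the starts of this pair. The first listed transcript of each has 3 exons. Slc30a1 (ENSMUSG00000037434) is at chr1:191906767-191913247 with 2 exons, and Mtf1 (ENSMUSG00000028890) at chr4:124802104-124849800 with 11 exons. Because Mt1 and Mt2 encode closely related proteins, their coding sequences are shown to let a reader judge how far reads can separate them. Both are from GENCODE M21, read 5′ to 3′ with the codons for cysteine in capitals.

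Mt1 coding sequence: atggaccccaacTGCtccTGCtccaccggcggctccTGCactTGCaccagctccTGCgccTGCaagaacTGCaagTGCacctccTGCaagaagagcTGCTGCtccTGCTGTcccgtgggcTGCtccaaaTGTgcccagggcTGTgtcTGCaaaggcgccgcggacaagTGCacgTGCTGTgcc
Mt2 coding sequence: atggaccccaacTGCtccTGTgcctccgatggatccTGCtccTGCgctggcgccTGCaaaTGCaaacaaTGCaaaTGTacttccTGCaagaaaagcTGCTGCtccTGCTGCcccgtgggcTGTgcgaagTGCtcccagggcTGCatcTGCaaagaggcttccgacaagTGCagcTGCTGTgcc

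Each holds 61 codons, 20 of them for cysteine, and all 20 cysteine codons fall at the same place in both. Of 183 bases, 145 are identical (79.2%), and the longest identical run is 20 bases, shorter than a read of 75 bases. No 75-base window of the Mt1 transcript occurs in the transcripts of another annotated gene, so reads of Mt1 and Mt2 can be told apart. For Mt2, 141 of 437 such windows (32.3%) are shared with Gm45774, an antisense gene that overlaps it by 749 bases and stood at 0 to 0.55 TPM. The strand setting of the authors' counting is not given in the sources used here, so reads of overlapping partners could be split. The same holds for 395 of 5170 windows of Slc30a1 (7.64%), shared with the antisense gene 1700034H15Rik at 0.03 to 1.85 TPM, and for 647 of 7557 windows of Mtf1 (8.56%), shared with 1110065P20Rik at 21.11 to 37.13 TPM.

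The stretches before the starts of 3 of the 4 genes, those with metal response cores, are shown because MTF1 is known to act through such elements. They come from the RefSeq promoter table of GRCm38.p6, in which all 4 genes were found, and end before the first annotated transcribed base. All lie on the plus strand and are read 5′ to 3′, and capitals mark matches to the core TGCACNC or TGCGCNC on either strand.

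Mt1 at chr8:94178839-94179081: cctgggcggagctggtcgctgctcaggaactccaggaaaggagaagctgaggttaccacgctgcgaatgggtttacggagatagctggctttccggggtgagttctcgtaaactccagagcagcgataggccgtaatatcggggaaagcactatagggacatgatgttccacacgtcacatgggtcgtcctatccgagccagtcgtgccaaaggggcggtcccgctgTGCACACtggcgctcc
Mt2 at chr8:94172368-94172617: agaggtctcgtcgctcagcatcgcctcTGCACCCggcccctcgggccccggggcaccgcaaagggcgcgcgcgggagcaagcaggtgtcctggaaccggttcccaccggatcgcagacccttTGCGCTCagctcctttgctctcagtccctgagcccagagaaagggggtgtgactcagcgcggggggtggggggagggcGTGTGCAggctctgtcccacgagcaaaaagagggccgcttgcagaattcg
Slc30a1 at chr1:191906531-191906766: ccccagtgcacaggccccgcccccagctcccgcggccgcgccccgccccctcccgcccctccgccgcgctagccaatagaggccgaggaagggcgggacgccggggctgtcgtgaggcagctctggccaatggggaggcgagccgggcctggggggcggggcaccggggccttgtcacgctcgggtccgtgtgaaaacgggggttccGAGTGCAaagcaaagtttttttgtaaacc

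Positions are counted from the RefSeq start. The stretches printed for Mt1 and Slc30a1, of 243 and 236 bases, end short of that start, so their cores lie nearer to the printed end. In the 250 bases before the RefSeq start, Mt2 held 3 metal response cores, beginning at bases -223, -128 and -50. Mt1 held 1, at -23, and Slc30a1 held 1, at -43, while no match lay in the window of Mtf1. Such cores were not particular to these genes: Mt4 held 1, Slc30a4 held 2 and a zinc transporter below the filter held 3. Slc39a3, Slc39a8 and Slc39a11 held 1 each, and others, such as Slc39a10, held none. Of 32851 promoters of 250 bases, 21.4% held at least 1 metal response core and 1.26% at least 3. An antioxidant response core, TGACNNNGC on either strand, began at -79 in Mt2 and at -82 in Slc30a1, a motif that 10.2% of the promoters held, and neither of these matches overlapped a metal response core. The annotated 5′ leaders held further metal response cores: 4 in the 229 bases of Mt1, 3 in the 184 bases of Mt2 and 1 in the 240 bases of Slc30a1. Set against the first bases of the first listed transcript of every gene, at the same length, at least 4 cores occurred in 0.104% of 48021 transcripts and at least 3 in 0.371% of 48744. At the length of the Slc30a1 leader, at least 1 occurred in 18.1% of 47813. The split between promoter and leader rests on the annotated starts, and where transcription starts in these cells was not tested. Cores counted in a leader may therefore lie before the start in use. These matches describe letters only and show no binding.

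Mt1 and Mt2 stood far higher with EIPA than in any other group, Slc30a1 was higher by less and Mtf1 by least. In EIPA, Mt1 stood at 2045.3, 2195.8, 2538.1, 1267.4 and 1420.8 TPM in replicates 1 to 5. In 0.2 mM vehicle it stood at 432.5, 416.7, 441.0, 384.0 and 381.7 TPM. The lowest EIPA library was thus well above the highest vehicle library, and the mean was 4.61 times as high, at 1893.5 ± 535.1 against 411.2 ± 27.31 TPM (SD, n = 5 each). On the log2(TPM + 1) scale the difference was 2.15 ± 0.14 (SE).

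Mt2, the second metallothionein of the pair, had the wider difference. With EIPA it stood at 2406.2, 2497.8, 2987.3, 1616.4 and 1582.5 TPM, and in 0.2 mM vehicle at 254.9, 257.2, 245.1, 222.1 and 202.7 TPM. The groups did not overlap, and the mean with EIPA was 9.38 times the vehicle mean, at 2218.0 ± 606.5 against 236.4 ± 23.39 TPM (SD, n = 5 each). The log2 difference was 3.19 ± 0.17. By size of the EIPA difference, Mt2 ranked 7 and Mt1 ranked 33 from the highest of the 12350 genes tested, as values that were known when the genes were chosen. Together the pair made up 4111.5 ± 1138.9 TPM with EIPA and 647.6 ± 48.66 TPM in 0.2 mM vehicle. By mean level, Mt2 held place 631 of all genes in 0.2 mM vehicle and place 49 with EIPA, and Mt1 held places 321 and 64.

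**Figure D1:**
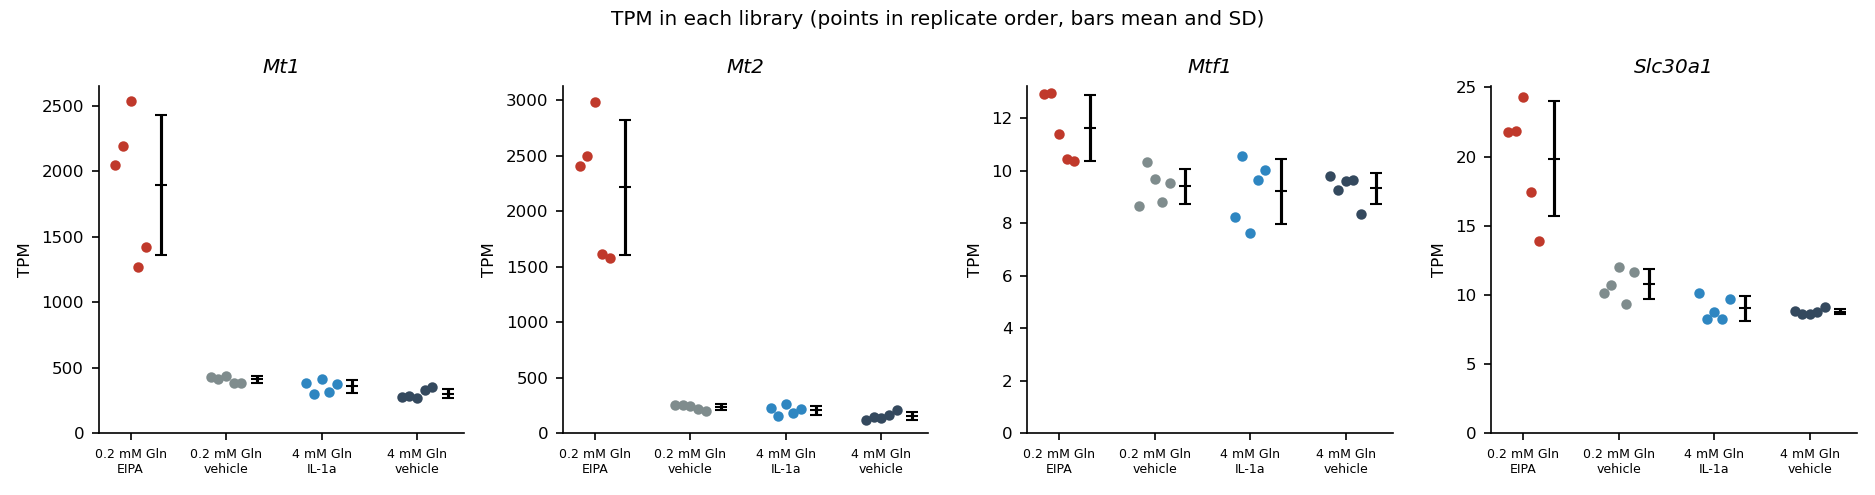
TPM of Mt1, Mt2, Mtf1 and Slc30a1 in each of the 20 libraries, with 1 panel for each gene and an axis from 0. Points are libraries in replicate order within a group and bars are the mean and SD of 5 libraries. EIPA libraries lie above all 0.2 mM vehicle libraries in each panel, by a wide gap for Mt1 and Mt2 and a narrow gap for Mtf1.

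The zinc exporter Slc30a1 was also higher with EIPA. It stood at 21.8, 21.88, 24.3, 17.43 and 13.92 TPM with EIPA and at 10.13, 10.7, 12.02, 9.38 and 11.66 TPM in 0.2 mM vehicle. Replicate 5 of EIPA lay nearest to the vehicle libraries, and the groups did not overlap. The means were 19.87 ± 4.146 and 10.78 ± 1.084 TPM (SD, n = 5 each), a ratio of 1.84 and a log2 difference of 0.81 ± 0.11.

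Mtf1, the zinc sensor, differed least. Its EIPA values were 12.95, 12.97, 11.39, 10.47 and 10.39 TPM and its 0.2 mM vehicle values 8.68, 10.34, 9.68, 8.81 and 9.53 TPM. The lowest EIPA library and the highest vehicle library were almost at the same level. The means were 11.63 ± 1.273 and 9.408 ± 0.6792 TPM (SD, n = 5 each), and the log2 difference was 0.28 ± 0.09. All 4 genes were thus higher with EIPA without overlap, in a comparison where 34.6% of the genes tested did not overlap (20% higher and 14.7% lower) and 48.5% were called (27.4% higher and 21.1% lower). The choice of the genes used this contrast. The remaining metallothioneins listed were near the floor: Mt3 never passed 0.37 TPM and Mt4 was listed at 0 in all 20 libraries, so no fold is given for either.

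EIPA replicates 4 and 5 had the lowest EIPA levels of Mt1, Mt2, Slc30a1 and Mtf1. They also stood apart from the other 3 EIPA libraries over all genes, on a first component holding 47.5% of the variance within that group. Without them, a choice made after seeing the data, the log2 differences were 2.45 for Mt1, 3.47 for Mt2, 1.01 for Slc30a1 and 0.37 for Mtf1. Mitochondrially encoded genes took 5.18% to 6.78% of TPM with EIPA and 8.55% to 9.24% in 0.2 mM vehicle. With those genes left out, the differences were 2.10, 3.14, 0.76 and 0.23 in the same order.

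The balance between the metallothioneins also differed between groups. The ratio of Mt2 to Mt1, both in TPM and so per length, was 1.176 ± 0.06169 with EIPA, with a range of 1.114 to 1.275 (SD, n = 5). In 0.2 mM vehicle it was 0.5743 ± 0.03274, with a range of 0.5311 to 0.6172. Mt2 was thus the higher of the pair in all 5 EIPA libraries and Mt1 in all 15 libraries without EIPA. The ratio was 0.5791 ± 0.03747 with IL-1a and 0.5125 ± 0.06102 in 4 mM vehicle. EIPA replicates 4 and 5, with the lowest levels, kept ratios of 1.275 and 1.114, the highest and the lowest of their group.

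**Figure D2:**
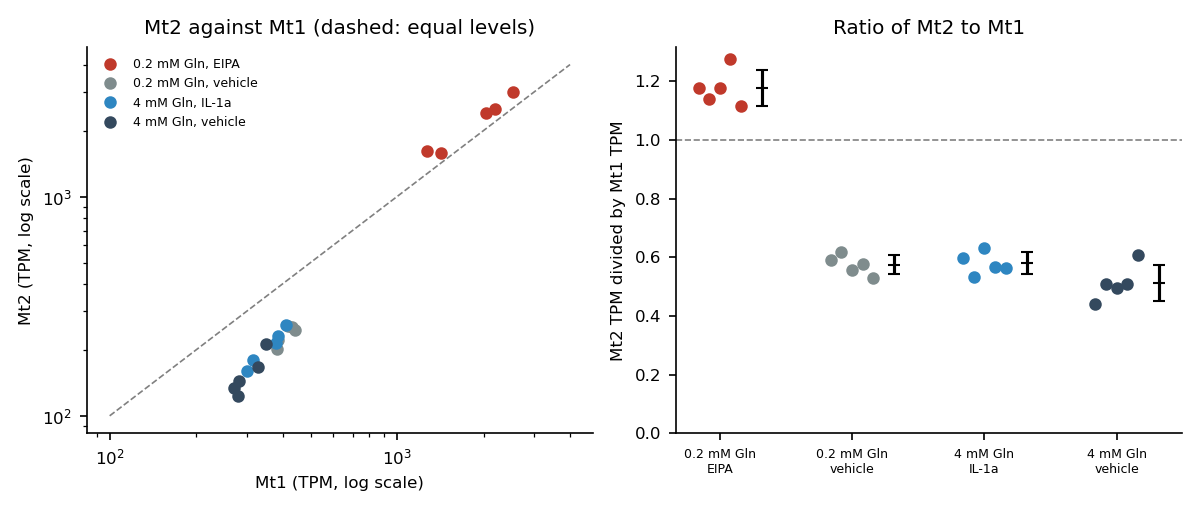
Left, Mt2 against Mt1 in TPM in each library on log axes, with a dashed line at equal levels. Right, Mt2 divided by Mt1 in each library, with the mean and SD of 5 libraries. The 5 EIPA libraries lie above the line of equal levels, at ratios of 1.114 to 1.275, and the other 15 lie below it.

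IL-1a at 4 mM glutamine gave small differences in these genes. Mt1 stood at 386.2, 299.7, 410.9, 316.5 and 380.1 TPM with IL-1a and at 278.9, 281.6, 270.9, 327.7 and 350.2 TPM in 4 mM vehicle. Mt2 stood at 230.4, 159.7, 259.9, 179.8 and 214.8 TPM with IL-1a and at 122.8, 143.6, 134.2, 166.3 and 213.3 TPM in vehicle. For both genes 3 IL-1a libraries lay above every vehicle library and 2 lay among the vehicle libraries. The log2 differences were 0.25 ± 0.14 for Mt1 and 0.42 ± 0.17 for Mt2. Slc30a1 ranged from 8.23 to 10.17 TPM with IL-1a and from 8.65 to 9.12 TPM in vehicle, a log2 difference of 0.03 ± 0.11. Mtf1 ranged from 7.63 to 10.56 TPM and from 8.34 to 9.79 TPM, a log2 difference of -0.02 ± 0.09. By size of the IL-1a difference, Mt2 ranked 158, Mt1 469, Slc30a1 4807 and Mtf1 7955 from the highest of the 12350 genes tested. These values too were known when the genes were chosen. The groups overlapped for 4 of 4 genes, in a comparison where 1.38% of the genes tested did not overlap (0.777% higher and 0.599% lower) and 0.283% were called (0.259% higher and 0.0243% lower). Vehicle replicate 5 had the highest Mt1, Mt2 and Slc30a1 of the 4 mM vehicle libraries. It and IL-1a replicates 1 and 5 also had the lowest levels of Ccn1, a matricellular gene, at 200.8 to 234.8 TPM against 378.7 to 598.6 TPM in the other 4 mM libraries. Without these 3 libraries, a choice made after seeing the data, the log2 differences were 0.23 for Mt1 and 0.47 for Mt2.

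Low glutamine alone, 0.2 mM against 4 mM in vehicle, went with somewhat higher metallothionein RNA. This comparison shares the 0.2 mM vehicle libraries with the EIPA comparison and the 4 mM vehicle libraries with the IL-1a comparison, so only each comparison's own values are given. Mt1 was 1.36 times as high at 0.2 mM, at 411.2 ± 27.31 against 301.8 ± 35.0 TPM (SD, n = 5 each), and the groups did not overlap. Mt2 was 1.51 times as high, at 236.4 ± 23.39 against 156.1 ± 35.8 TPM (SD, n = 5 each). Its groups overlapped through 4 mM vehicle replicate 5, which stood at 213.3 TPM, above the lowest library at 0.2 mM. Slc30a1 stood at 10.78 ± 1.084 against 8.806 ± 0.192 TPM (SD, n = 5 each), without overlap, and Mtf1 at 9.408 ± 0.6792 against 9.332 ± 0.5867 TPM (SD, n = 5 each), with overlap. In this comparison 59.9% of the genes tested did not overlap (37.2% higher and 22.7% lower), 73.3% were called (45.4% higher and 27.9% lower), and the median gene was higher at 0.2 mM by 0.14 on the log2 scale. The log2 differences were 0.45 ± 0.14 for Mt1, 0.62 ± 0.17 for Mt2, 0.26 ± 0.11 for Slc30a1 and 0.01 ± 0.09 for Mtf1. Relative to the median gene they were 0.31, 0.48, 0.12 and -0.13. For Mtf1 the sign therefore turned with the scaling.

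Ordered by mean level, Mt1 and Mt2 both ran from EIPA through 0.2 mM vehicle and IL-1a to 4 mM vehicle. For Mt1, IL-1a at 358.7 ± 47.97 TPM overlapped both of its neighbours in that order, and so did Mt2 with IL-1a at 208.9 ± 39.89 TPM. Slc30a1 had the same order, and IL-1a at 9.034 ± 0.8809 TPM again overlapped both neighbours. Mtf1 was highest with EIPA, and the other 3 groups, at 9.222 to 9.408 TPM, did not differ beyond their spread.

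Zinc transporters other than Slc30a1 differed in both directions. The ZnT family (Slc30a genes) moves zinc out of the cytosol and the ZIP family (Slc39a genes) moves it in, and 15 of their 23 other members passed the filter. With EIPA 3 rose, 3 fell and 9 were not called (limma, Benjamini-Hochberg), with a median of 0.00 where the median over all genes was 0.02. Over all genes tested, 27.4% were called higher and 21.1% lower, so these counts lie near the share of all genes. Slc39a10, a zinc importer of the plasma membrane reported to be repressed by MTF1, fell most. It stood at 3.53 to 4.92 TPM with EIPA against 8.43 to 11.47 TPM in 0.2 mM vehicle, without overlap (-0.98 ± 0.13 on the log2 scale, limma adjusted p = 2.8e-06). Slc39a3, another importer of the plasma membrane, fell by 0.31 ± 0.07 (limma adjusted p = 8.6e-04). Slc39a6 fell by 0.23 ± 0.09 (limma adjusted p = 0.033). That call was lost when EIPA replicate 4 or 5 or 0.2 mM vehicle replicate 2, 3 or 5 was left out (limma adjusted p = 0.062 to 0.11). It was also lost with no filter (limma adjusted p = 0.06) and without both EIPA libraries (-0.10, limma adjusted p = 0.36). Slc30a4, a transporter of vesicles, rose by 0.33 ± 0.05 (limma adjusted p = 3.6e-05), from 55.56 to 61.3 TPM in vehicle to 72.55 to 76.83 TPM with EIPA. Slc39a14 rose by 0.27 ± 0.07 (limma adjusted p = 0.0043). Slc39a9 rose by 0.22 ± 0.08 (limma adjusted p = 0.023). That call was lost without EIPA replicate 1 or 0.2 mM vehicle replicate 1, 2 or 4 (limma adjusted p = 0.056 to 0.068). It was also lost with quantile normalisation or mitochondrially encoded genes left out (limma adjusted p = 0.051 and 0.075). The 9 not called were Slc30a5, Slc30a6, Slc30a7, Slc30a9, Slc39a1, Slc39a7, Slc39a8, Slc39a11 and Slc39a13, at -0.21 to 0.12. Slc39a11 was called lower without 0.2 mM vehicle replicate 1 (-0.28, limma adjusted p = 0.021), and with median-of-ratios scaling, quantile normalisation or mitochondrially encoded genes left out (-0.25 to -0.26, limma adjusted p = 0.037 to 0.04).

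With IL-1a none of the 15 was called by limma, also in each of the alternatives run, and their median was 0.01. Of all genes tested, 0.283% were called there. At 0.2 mM against 4 mM glutamine 4 of the 15 rose, 3 fell and 8 were not called, with a median of -0.01 against 0.14 over all genes, of which 45.4% were called higher and 27.9% lower. Slc39a10 had the widest difference, at 30.8 to 52.83 TPM over both 4 mM groups and 8.43 to 11.47 TPM in 0.2 mM vehicle (-2.00 ± 0.13 against 4 mM vehicle, limma adjusted p = 1.5e-11). Slc39a13, which serves the early secretory pathway, fell by 0.61 ± 0.09 (limma adjusted p = 3.2e-06) and Slc39a7 fell by 0.21 ± 0.07 (limma adjusted p = 0.012). Slc39a3 rose by 0.57 ± 0.07 (limma adjusted p = 2.1e-07), Slc30a4 by 0.56 ± 0.05 and Slc39a6 by 0.53 ± 0.09. Slc30a9 rose by 0.25 ± 0.07 (limma adjusted p = 0.002). Median-of-ratios scaling took it to 0.11 (limma adjusted p = 0.17) and quantile normalisation to 0.13 (limma adjusted p = 0.094). Under median-of-ratios scaling 8 of the 15 were called lower, so directions in this comparison for genes near the median depend on the scaling.

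**Figure D3:**
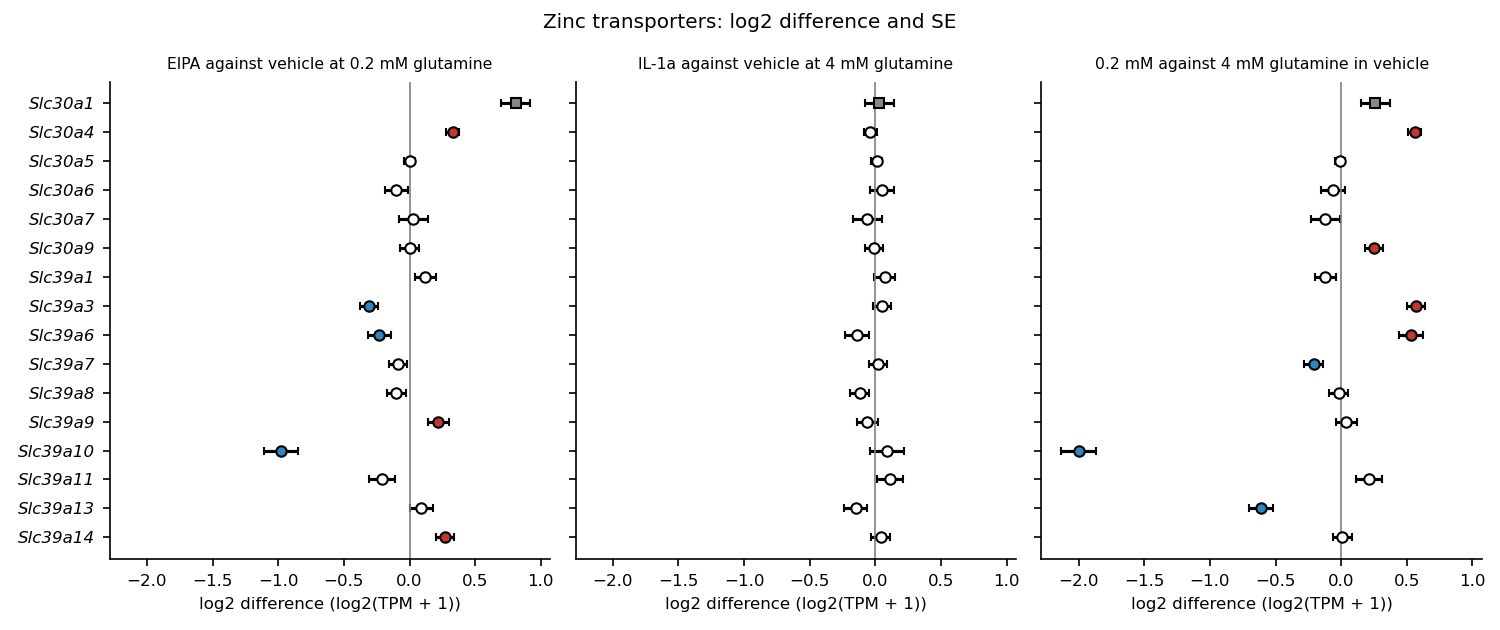
Log2 differences of the 16 zinc transporters that passed the filter in the 3 comparisons, with SE as bars. Red and blue mark genes called higher and lower, open circles genes not called, and the grey square Slc30a1, for which no test is given. Slc39a10 lies lowest in the left and right panels, at -0.98 and -2.00.

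Further genes reported as MTF1 targets or zinc regulators, on a list chosen with earlier results known, moved in both directions. Of 9 tested besides the 4 genes above, 3 rose with EIPA, 3 fell and 3 were not called, with a median of 0.23. Over all genes tested, 27.4% were called higher with EIPA and 21.1% lower, with a median of 0.02. Pgf, which encodes placental growth factor, rose by 1.32 ± 0.17 (limma adjusted p = 3.4e-06) and stood at 1.99 to 3.67 TPM with EIPA, lowest in replicate 5. In 0.2 mM vehicle Pgf stood at 0.45 to 1.07 TPM, near the floor, and its difference ran from 1.26 to 2.09 over the alternatives. Gclc, of glutathione synthesis, rose by 0.39 ± 0.07 (limma adjusted p = 8.3e-05) and Txnrd2, a thioredoxin reductase of mitochondria, by 0.28 ± 0.09 (limma adjusted p = 0.018, and 0.066 without EIPA replicate 4). The Txnrd2 call was also lost with quantile normalisation (limma adjusted p = 0.08) and without EIPA replicates 4 and 5 (limma adjusted p = 0.062). Besides Slc39a10, Csrp1 fell by 0.74 ± 0.07 (limma adjusted p = 1.9e-08) and Selenow by 0.36 ± 0.07 (limma adjusted p = 3.9e-04). Ndrg1, Slc40a1 and Zfp658 were not called, at 0.23 ± 0.13, 0.51 ± 0.21 and -0.11 ± 0.12. The first 2 were called higher without the 3 libraries of low Ccn1 (limma adjusted p = 0.047 and 2.3e-04) and with only the 2 groups fitted (limma adjusted p = 9.7e-04 and 4.3e-04). Slc40a1 was also called with the replicate number as a block (limma adjusted p = 0.037). The same held without 0.2 mM vehicle replicate 1, IL-1a replicate 1, 2, 3 or 5 or 4 mM vehicle replicate 5 (limma adjusted p = 0.028 to 0.046). None of the 9 was called with IL-1a, where 0.283% of all genes were. At 0.2 mM against 4 mM glutamine 4 rose, 2 fell and 3 were not called, with a median of 0.16. Over all genes 45.4% were called higher there and 27.9% lower, with a median of 0.14, so these counts lie near that share. Ndrg1 rose most, by 2.06 ± 0.13 (limma adjusted p = 1.5e-11). Besides Slc39a10, the gene that fell was Pgf, at -0.46 ± 0.17 (limma adjusted p = 0.023). That call was lost without 0.2 mM vehicle replicate 3 or 5 or 4 mM vehicle replicate 1 (limma adjusted p = 0.056 to 0.085). It was also lost with quantile normalisation (limma adjusted p = 0.065), and each loss leaves 1 gene called lower.

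Lists for other conditions under which metallothionein genes are known to respond gave the following counts with EIPA, to be read against 27.4% of all genes called higher, 21.1% called lower and a median of 0.02. In oxidative stress 11 of 12 tested genes rose and Me1 was not called, with a median of 0.43, and Osgin1 rose most, by 2.53 ± 0.15 (limma adjusted p = 2.6e-11). This count ran from 10 to 12 over the alternatives, and the least stable gene lost its call in 19 of 31. In heat shock 9 of 10 rose and Bag3 was not called, with a median of 0.44, and Hspa4l rose most, by 1.31 ± 0.19 (limma adjusted p = 1.0e-05). That count ran from 7 to 10 over the alternatives, and the least stable gene lost its call in 12 of 31. In copper handling 5 of 12 rose and 2 fell, led by the metalloreductase Steap3 at 1.17 ± 0.11 (limma adjusted p = 4.4e-08), with a median of 0.10. In iron handling 6 of 12 rose and none fell, led by the mitochondrial iron importer Slc25a37 at 1.08 ± 0.11 (limma adjusted p = 1.3e-07), with a median of 0.30. Of 8 glucocorticoid-responsive genes 4 rose, led by Tsc22d3 at 0.65 ± 0.14 (limma adjusted p = 5.1e-04), and 2 fell, led by Dusp1 at -1.01 ± 0.16 (limma adjusted p = 2.3e-05), with a median of 0.18. Of 7 STAT3-responsive genes 3 rose and none fell, with a median of 0.18. Without EIPA replicate 3 the last 2 counts of genes that rose were both 1. The count of 4 also went to 2 without EIPA replicate 2 or 4 or 0.2 mM vehicle replicate 1, 2, 4 or 5, and the count of 3 to 1 without EIPA replicate 4 or 0.2 mM vehicle replicate 1, 2 or 3. With IL-1a, where Mt1 and Mt2 overlapped between groups, the called genes of these lists were Cebpd at 1.45 ± 0.15 (limma adjusted p = 9.6e-06) and Bcl3 at 1.09 ± 0.13 (limma adjusted p = 1.1e-04). Of all genes tested, 0.283% were called with IL-1a. At 0.2 mM against 4 mM glutamine 45.4% of all genes were called higher and 27.9% lower, with a median of 0.14. There the list of oxidative stress had 5 genes called higher and 6 lower, with a median of -0.21. That of STAT3-responsive genes had 2 and 5, with a median of -0.94. Iron handling had 7 higher and 4 lower (median 0.40), glucocorticoid-responsive genes 5 and 3 (median 0.56) and copper handling 5 and 2 (median 0.16). Heat shock had 3 and 3 (median -0.07), and its lower count went to 5 without EIPA replicate 4 and with median-of-ratios scaling. The STAT3 count of 2 went to 1 without 0.2 mM vehicle replicate 2 or 4 mM vehicle replicate 5.

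**Figure D4:**
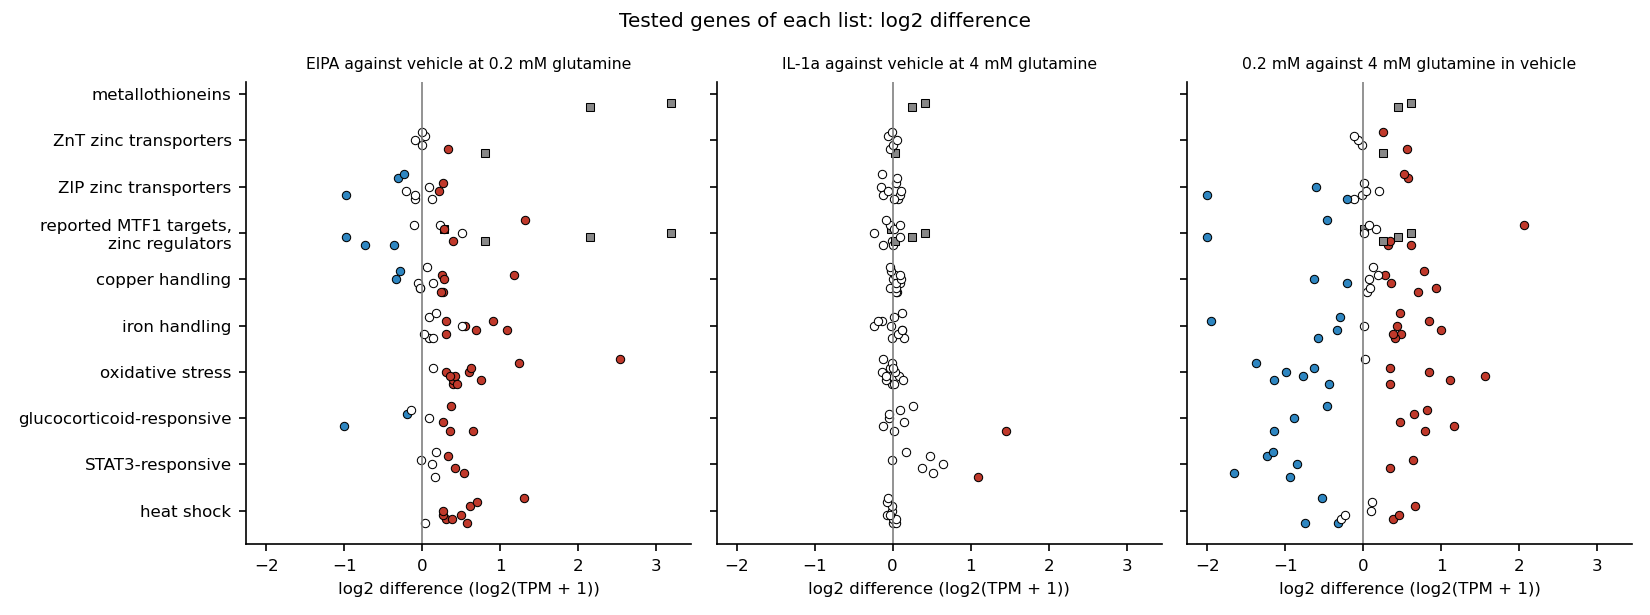
Log2 differences of every tested gene of each list, 1 panel for each comparison, with points shifted vertically for legibility. Red and blue circles are genes called higher and lower, open circles genes not called, and grey squares Mt1, Mt2, Slc30a1 and Mtf1. In the left panel Mt1 and Mt2 lie at 2.15 and 3.19, and Osgin1 at 2.53.

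The pattern of each metallothionein over the libraries was most like that of the other. Among 10041 genes with a mean of at least 5 TPM, Pearson's r of log2(TPM + 1) over the 20 libraries was 0.997 between Mt1 and Mt2. Next for Mt1 came Ctsd (0.989), Mon1b (0.976), Gla (0.973) and Cmtm3 (0.972), and next for Mt2 came Ctsd (0.992), Cmtm3 (0.982), Pex5 and Gla (both 0.980). These values rest on the gap between the 5 EIPA libraries and the rest, and they share the scaling of TPM. Ctsd, which encodes the lysosomal protease cathepsin D, stood at 671.5 to 795.1 TPM with EIPA and at 309.6 to 389 TPM in the other 15 libraries. Deviations from the group means remove that gap. On them r was 0.935 between Mt1 and Mt2 over the 20 libraries, followed for Mt1 by Slc36a1 (0.860), Bud31 (0.843), Cdk2 (0.842) and Tgoln1 (0.832). For Mt2 they were followed by Ctsd (0.860), Repin1 (0.821), Pmm1 (0.820) and Ripk1 (0.801). Slc30a1 deviated with Mt1 at r = 0.77 and with Mt2 at r = 0.66, whereas Mtf1 gave 0.06 with Mt1, -0.14 with Mt2 and 0.32 with Slc30a1. Much of the deviation is that of EIPA replicates 4 and 5 from the other EIPA libraries, and no test was made on these correlations.

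Genes around Mt1 and Mt2 had much smaller differences with EIPA. Mt1 and Mt2 were chosen with their own differences known, so this contrast is a description only. Within 250 kb of the Mt1 start, 5 other tested genes are reported. With EIPA, Herpud1, at 207.4 kb, rose by 0.28 ± 0.09 (limma adjusted p = 0.019) and Nudt21, at -163.6 kb, fell by 0.33 ± 0.04 (limma adjusted p = 2.3e-06). The Herpud1 call was lost without 0.2 mM vehicle replicate 5 (limma adjusted p = 0.067) and without EIPA replicates 4 and 5 (limma adjusted p = 0.073). It was also lost with mitochondrially encoded genes left out (limma adjusted p = 0.051). Ogfod1, Bbs2 and Nup93 were not called, at 0.06 to 0.17, and the nearest of these, Nup93, stood at 0.06 ± 0.04, 35.5 kb away. None of the 5 was called with IL-1a, and at 0.2 mM against 4 mM glutamine 3 rose and 2 fell. Over all genes tested, 48.5% were called with EIPA, 0.283% with IL-1a and 73.3% at 0.2 mM against 4 mM glutamine.

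**Figure D5:**
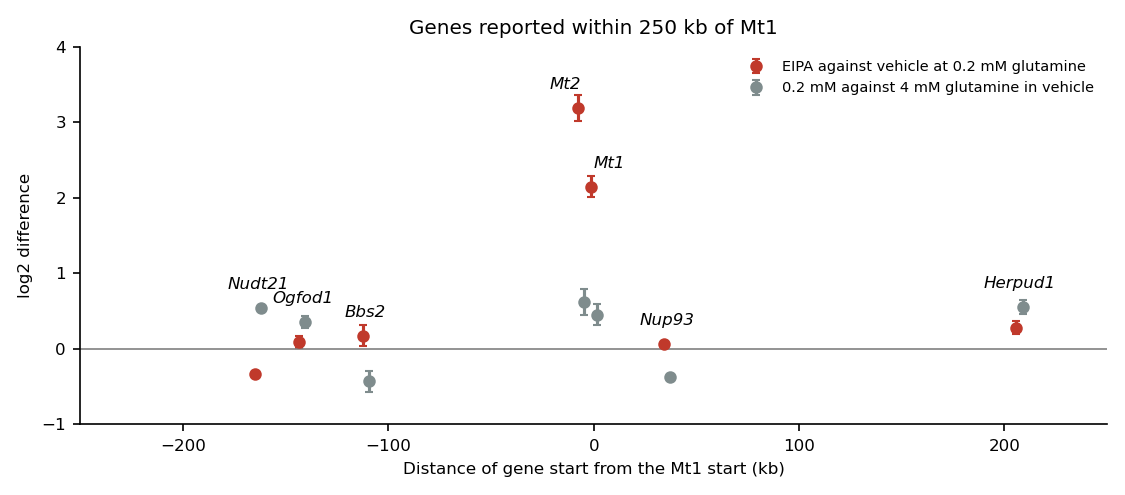
Log2 difference and SE of 7 tested genes within 250 kb of the Mt1 start, against the distance of their starts from it in kb. Red points are EIPA against vehicle and grey points 0.2 mM against 4 mM glutamine, set slightly apart sideways for legibility. Mt1 and Mt2 stand at 2.15 and 3.19 with EIPA, and the 5 other genes between -0.33 and 0.28.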

How the data were processed

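RNA was extracted with a PureLink kit, polyadenylated RNA was made into libraries with a Watchmaker kit and both ends were read for 75 bases, per the labels' protocols. The deposited values are TPM made by the authors with RSEM on mm10, per the submitters' processing notes, without versions. No aligner, annotation release or strand setting is named there: each is not given in the sources used here. TPM keeps no sequencing depth, so no counting interval is given and genes of a few TPM may rest on few reads. Of the 32285 IDs in the table, 32158 were found in GENCODE M21, 31436 of them under the same symbol.

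A single linear model of the 4 groups was fitted to log2(TPM + 1) by limma 3.58.1 (R 4.3.3), with an intensity trend. The filter on low values asked for 1 TPM or more in 5 or more libraries and left 12350 genes. Adjustment was by Benjamini-Hochberg over these genes, with calls under 0.05. Log2 differences carry their SE and TPM values their SD. The added 1 TPM understates the change of low genes. The script was checked on simulated data.

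The 4 genes and all lists were chosen with earlier results of these data known. The genes named are these 4, all zinc transporters tested, the called genes with the widest differences in each other list, the 5 genes most correlated with Mt1 and with Mt2, and the genes reported within 250 kb of Mt1. Me1, Bag3, Zfp658, Slc40a1, Ccn1, Cd68 and the marker genes were named after their values were seen. Alternatives were another pseudocount, other filters, other scalings, other model terms and leaving out libraries. A few genes are not reported here.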

Additional observations from a re-analysis of the deposited data

Results flagged for a closer look

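In each group of 5 libraries, the highest or lowest library was compared with its nearest neighbour by Dixon's ratio, above 0.71. This was done for 47 of the genes, sums and ratios named above, and not for every gene named. Of 188 groups 13 passed (6.91%), where chance alone passes about 5%. No group of Mt1, Mt2, Mtf1 or Slc30a1, of the sum of Mt1 and Mt2 or of their ratio was among them. Among zinc genes, Slc39a10 stood at 11.47 TPM in 0.2 mM vehicle replicate 5 against 8.43 to 9.15 TPM in the other 4 libraries, and Slc30a7 at 15.12 TPM in IL-1a replicate 3 against 21.56 to 23.38 TPM. Zfp658 stood at 2.17 TPM in 0.2 mM vehicle replicate 5, and Slc40a1 at 7.28 TPM in 4 mM vehicle replicate 5 against 3.51 to 4.28 TPM. In EIPA replicate 5, Pgf stood at 1.99 TPM against 3.49 to 3.67 TPM and Slc25a37 at 80.83 TPM, both the lowest of their group, as Slc30a1 was in that library. Nudt21 was lowest in EIPA replicate 4, at 137.9 TPM. In 0.2 mM vehicle replicate 4, Ctsd stood at 363.3 TPM and Tgoln1 at 86.38 TPM, both the lowest of their group. In 0.2 mM vehicle replicate 5, Ogfod1 stood at 22.32 TPM and Herpud1 at 108.5 TPM against 140.3 to 145 TPM. With IL-1a, Cebpd stood at 45.53 TPM in replicate 1 against 25.39 to 30.7 TPM, and Nup93 at 114.3 TPM in replicate 4.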

How the results depend on the processing

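With EIPA the log2 differences stayed within 2.04 to 2.45 for Mt1, 3.07 to 3.47 for Mt2, 0.71 to 1.01 for Slc30a1 and 0.20 to 0.37 for Mtf1 over all alternatives run. The upper ends for Mt1 (2.45) and Slc30a1 (1.01) came without EIPA replicates 4 and 5, and with single libraries left out the ranges were 2.04 to 2.29 and 0.73 to 0.92. At 0.2 mM against 4 mM glutamine Mtf1 went from 0.01 to -0.12 with median-of-ratios scaling, and the zinc transporters called lower went from 3 to 8 with that scaling and to 7 with quantile normalisation. In that comparison the genes called higher and lower over all genes were 5606 and 3449, and 4385 and 4438 with median-of-ratios scaling. Genes called higher with IL-1a went from 32 to 18 when only the 2 groups were fitted. Genes called lower with IL-1a numbered 3, and numbered 7 with no filter, 5 with mitochondrially encoded genes left out, 1 with only the 2 groups fitted and 1 to 6 with single libraries left out. With the replicate number as a block that count was 8, while the differences of the 4 genes kept their values, such as 3.19 for Mt2 with EIPA. Same-numbered libraries correlated at 0.06 to 0.32 for EIPA and its vehicle, -0.28 to 0.60 for IL-1a and its vehicle and 0.05 to 0.17 for the vehicles, which misses 0.1 for some pair in each. The libraries correlated best with their own number in 4 of 5, 2 of 5 and 4 of 5 cases, a hint of pairing from the data, not from the design. With the block, Me1 (adjusted p = 0.01), Slc39a11 (0.041) and Slc40a1 (0.037) became called with EIPA, and Slc39a11 (0.027) at 0.2 mM against 4 mM glutamine, by limma. Of 8175 values of single genes under alternatives, 7959 kept their call, 146 lost it, 70 gained it and none reversed among called genes. The cause of these shifts was not tested. Depth is unknown, and the number of replicates limits the precision.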
